A study of Mus musculus with 9 samples.

Results

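Oxidative phosphorylation complexes I to V are described here through the nuclear genes that encode their subunits and the complex I assembly factors. Members were the genes whose annotated symbol starts with Nduf, Uqcr, Atp5, or Cox followed by a digit from 4 to 8, together with Sdha, Sdhb, Sdhc and Sdhd. They came to 90 of the 18193 genes that a probe set naming no other gene could represent on the array, and 87 of them were measured above the filter on low values and tested. Complex I contributed 34 subunit genes and 8 assembly factors, complex II 4 genes, complex III 8, complex IV 19 and complex V 17. Ndufb4, Cox7a1 and Cox7b2 lay below the filter, a mean of 4.03 on the log2 scale. Another 8 genes that fit the symbol pattern were represented only by probe sets of several genes and were not counted.

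The study profiled RNA from LSK cells of mouse bone marrow (lineage-negative, Sca1-positive, cKit-positive), the sorted fraction that holds stem cells and early progenitors, on Affymetrix expression arrays. There were 3 groups of 3 arrays. The dnMPL GFP-positive and dnMPL GFP-negative groups were the GFP-bearing and GFP-lacking LSK cells of C57Bl/6 mice that had received dnMPL-transduced cells, where dnMPL is a dominant-negative form of the thrombopoietin receptor. The control group was LSK cells of mice given wild type LSK cells. All recipients were lethally irradiated C57Bl/6 mice, all cells were sorted 8 weeks after transplantation, and each array holds pooled marrow of 2 to 5 mice. The mice's ages, the vector carried by the control cells, and whether same-numbered GFP-positive and GFP-negative samples shared mice are not given in the labels. GFP-negative cells come from mice given transduced marrow, so they are not untreated cells. Arrays of a group are listed as separate samples, and the p-values measure the spread between such pools.

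Complexes I and II pass electrons from NADH and succinate to ubiquinone, complex III passes them on to cytochrome c, and complex IV reduces oxygen with them. Complexes I, III and IV pump protons across the inner mitochondrial membrane, and complex V, the ATP synthase, uses the gradient to make ATP. Long-term blood stem cells are known for relying less on this pathway than the progenitors that arise from them, and its genes are read together here because their products are built into shared complexes. The subunits encoded by mitochondrial DNA are not members.

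Array quality and cell content differed between samples in ways that touch the results. For Gapdh, the array's 3' control probe set exceeded its 5' one an excess that is read as a sign of RNA quality. It was 3.22 on GFP-positive 2 and 3.87 on control 3, against 2.47 to 2.89 on the other 7 arrays, and limma's array weights were 0.369 and 0.364 on those arrays, against 0.809 to 2.38 on the rest. Kit was 6.38 on GFP-positive 2, against 7.92 to 8.73 on the other arrays. The 7 measured LSK markers averaged 8.64 to 9.32 in GFP-positive, 9.18 to 9.39 in GFP-negative and 9.37 to 9.56 in control arrays. The 10 granulocyte markers averaged 10.7 to 11.7 in GFP-positive, 9.95 to 11.2 in GFP-negative and 7.18 to 9.59 in control arrays. On controls 1 to 3 they averaged 8.47, 7.18 and 9.59, so control 3 was the highest control. The 8 measured erythroid markers averaged 7.50 to 7.70 in GFP-positive, 7.23 to 7.38 in GFP-negative and 5.90 to 6.10 in control arrays. The 7 measured monocyte and macrophage markers averaged 5.98 to 7.67 in GFP-positive, 6.38 to 7.31 in GFP-negative and 5.18 to 5.70 in control arrays. The 4 mast cell markers averaged 5.74 to 7.06 in GFP-positive, 5.42 to 6.45 in GFP-negative and 4.89 to 5.17 in control arrays. The 4 megakaryocyte markers averaged 5.65 to 6.16 in GFP-positive, 6.08 to 6.29 in GFP-negative and 6.27 to 7.02 in control arrays. No marker passed the adjusted threshold, and the part of these cells in the differences below was not tested. A lower level in such bulk RNA cannot tell fewer cells of a type from less RNA per cell.

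No oxidative phosphorylation gene passed the threshold in any comparison. limma, fitted over all 9 arrays with Benjamini-Hochberg adjustment over 12400 genes, called 0 genes of any kind at 0.05 (0% in each comparison). The smallest adjusted p of a member was 0.732 in GFP-positive minus control, 0.829 in GFP-negative minus control and 0.9998 in GFP-positive minus GFP-negative. Unadjusted p fell under 0.05 for 2 members in GFP-positive minus control, where 6.49% of all genes did so, for 4 in GFP-negative minus control (5.57%), and for 1 in GFP-positive minus GFP-negative (2.55%). The median member had a standard error of 0.38 and a 95% interval of ±0.85 on the log2 scale, in which 1 unit is a 2-fold change. Below, each difference is a log2 fold change with its standard error, and none of them passed the threshold.

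The members lay mostly above control in both dnMPL fractions when all arrays were used. The median difference was 0.16 in GFP-positive minus control, with 56 members higher and 31 lower, whereas 47.2% of all genes tested lay higher and their median was -0.03. It was 0.26 in GFP-negative minus control, with 59 higher and 28 lower, against 46.5% and -0.04 for all genes. Those comparisons share the control arrays and are not independent. Between the dnMPL fractions the median was -0.05, with 41 members higher in GFP-positive cells and 46 lower, against 51.8% higher and 0.01 for all genes. Without control 3 the medians were -0.11 for GFP-positive minus control, with 30 members higher and 57 lower (46.9% of all genes higher), and 0.00 for GFP-negative minus control, with 44 higher and 43 lower (44.9%).

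**Figure D1:**
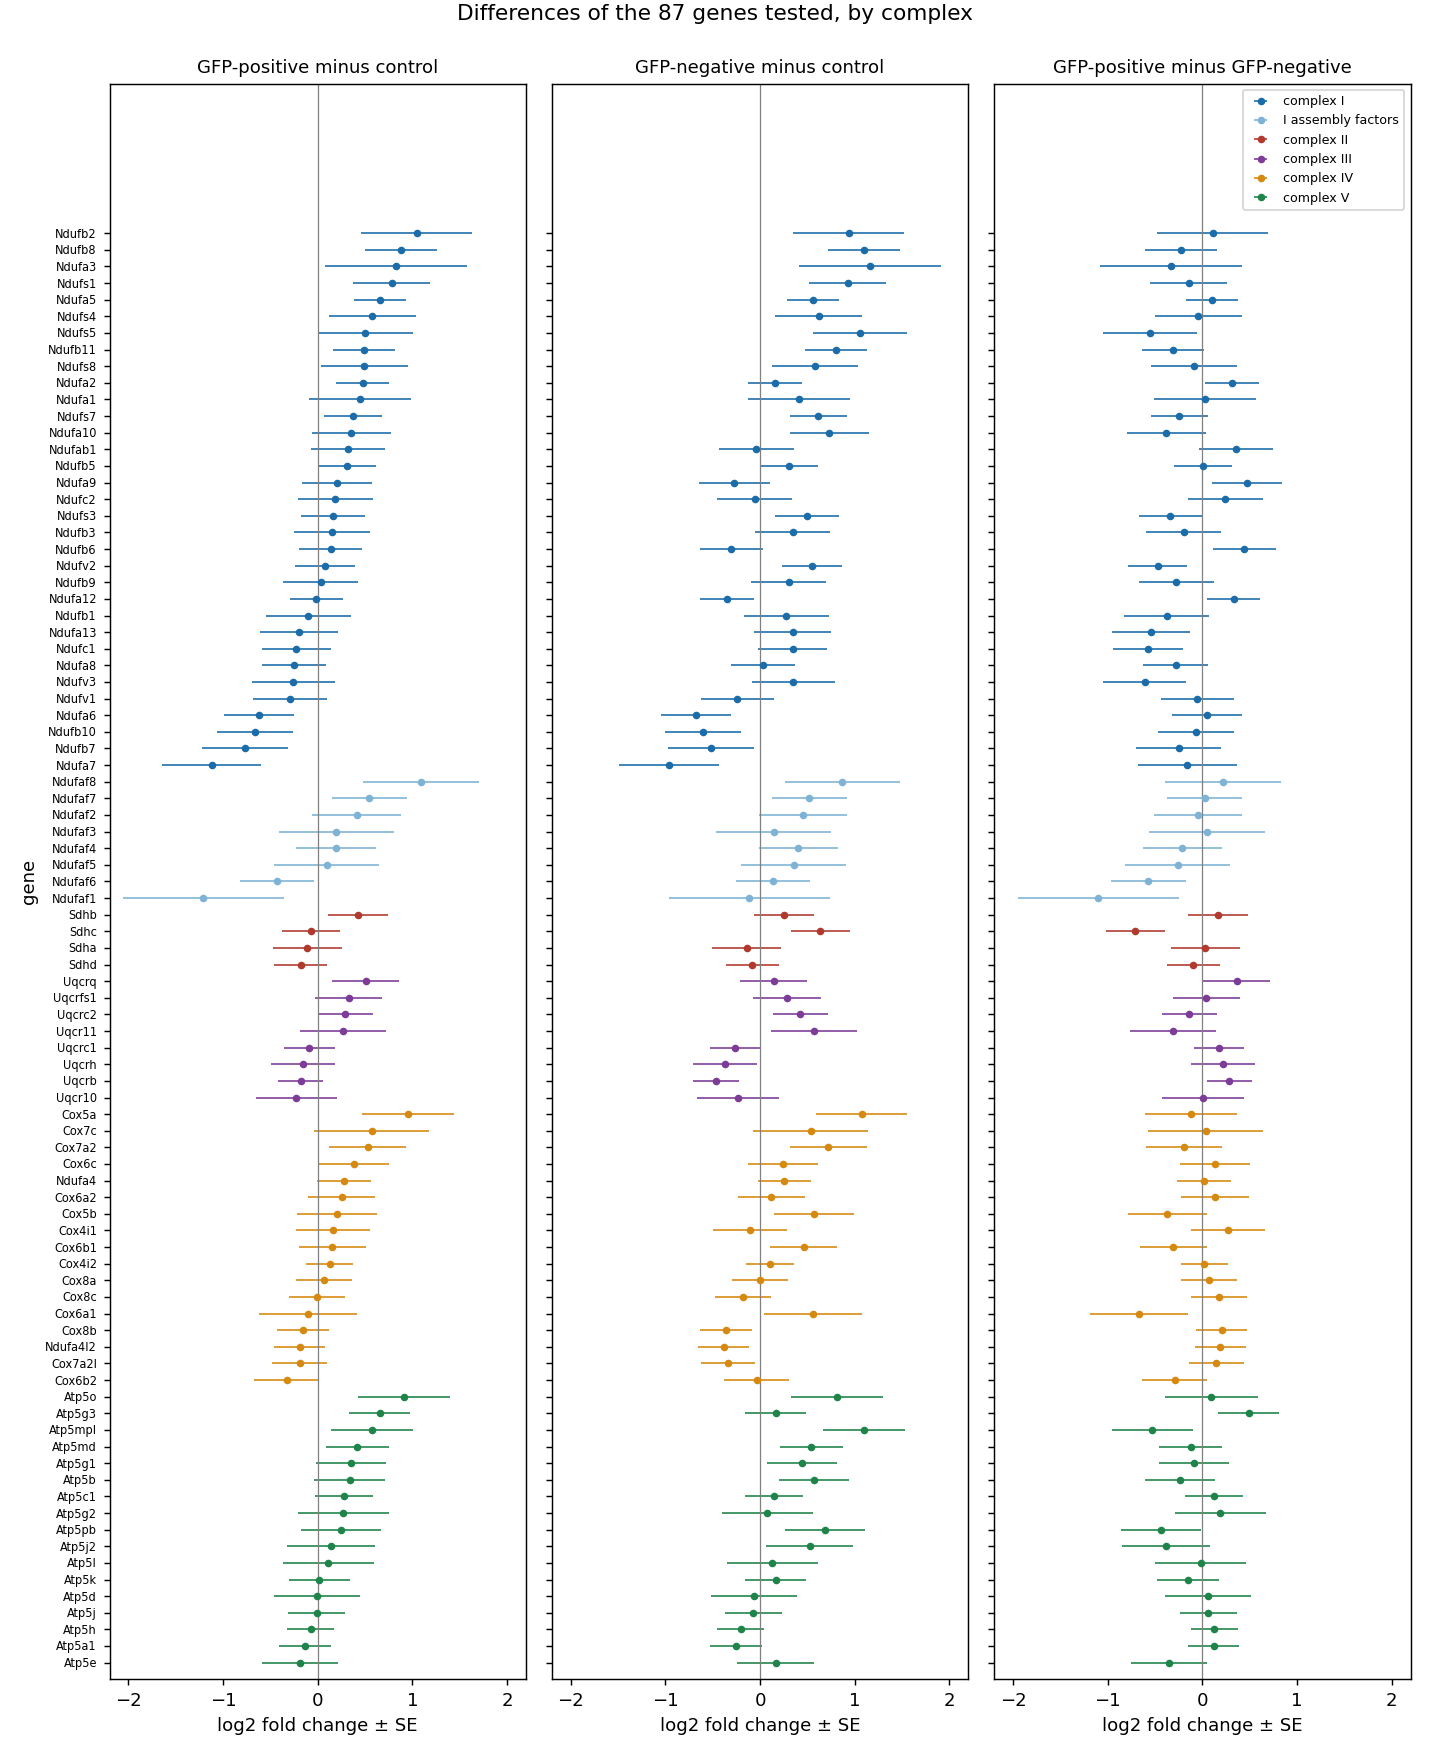
Log2 fold change of the 87 genes tested, a row per gene, coloured by complex, for GFP-positive minus control, GFP-negative minus control and GFP-positive minus GFP-negative; points are limma estimates and bars are ± SE. Most points in the panels against control lie right of 0 with bars that reach or approach it, and no gene passed the adjusted threshold of 0.05.

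Control 3 gave the lowest value of the 9 arrays for 48 of 87 members (55.2%), where it did so for 18.9% of all genes. It lay below both other controls for 72 members, above both for 9 and between them for 6. The median gap of control 3 to the mean of controls 1 and 2 was -0.81 for the members and -0.04 for all genes, and 36 members lay more than 1 below that mean. Ndufa3 had the gap of greatest size at -3.10, followed by the assembly factors Ndufaf1 at -2.53 and Ndufaf8 at -2.30. Cox6a2 at 0.85 and Ndufb10 at 0.81 lay above it. The members' median deviation from each gene's mean was -0.05, -0.09 and 0.32 on GFP-positive arrays 1 to 3, 0.03, 0.17 and 0.14 on the GFP-negative arrays, and 0.06, 0.16 and -0.73 on the controls. Control 3 also had the largest Gapdh 3'-to-5' difference, but the same difference for Actb did not single it out. For Actb it was -1.13 on GFP-positive 2 and -0.71 on control 3, and -0.72 to -0.55 on the other 7 arrays. The parts of RNA quality and of cell content in the members' level on control 3 were not tested.

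**Figure D2:**
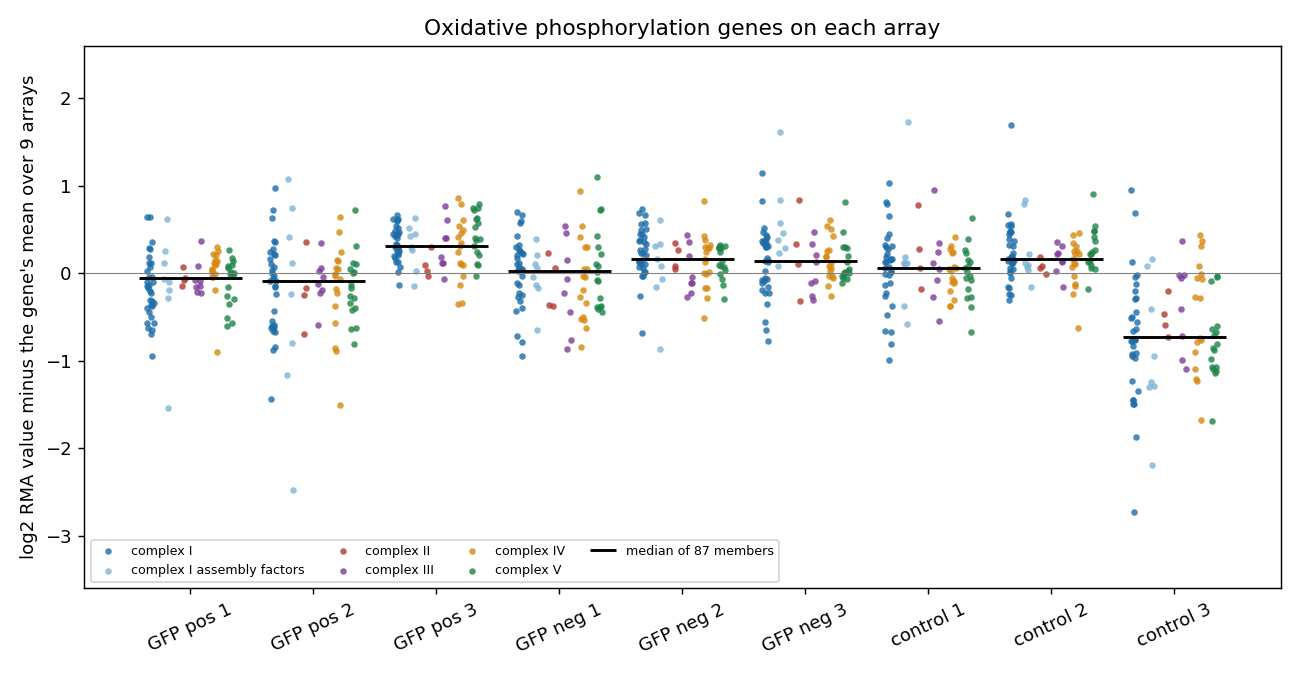
Log2 RMA value of each member minus its mean over 9 arrays (vertical axis), per array (horizontal axis), coloured by complex, with the median of the 87 members as a black line. The control 3 median lies at -0.73, and the other 8 medians lie between -0.09 and 0.32.

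The members' median SD over 3 arrays was 0.39 in GFP-positive, 0.29 in GFP-negative and 0.52 in control samples, against 0.44, 0.33 and 0.45 for all genes. GFP-positive 3 was the highest of the 9 arrays for 20 members (23.0%), against 7.14% of all genes.

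**Figure D3:**
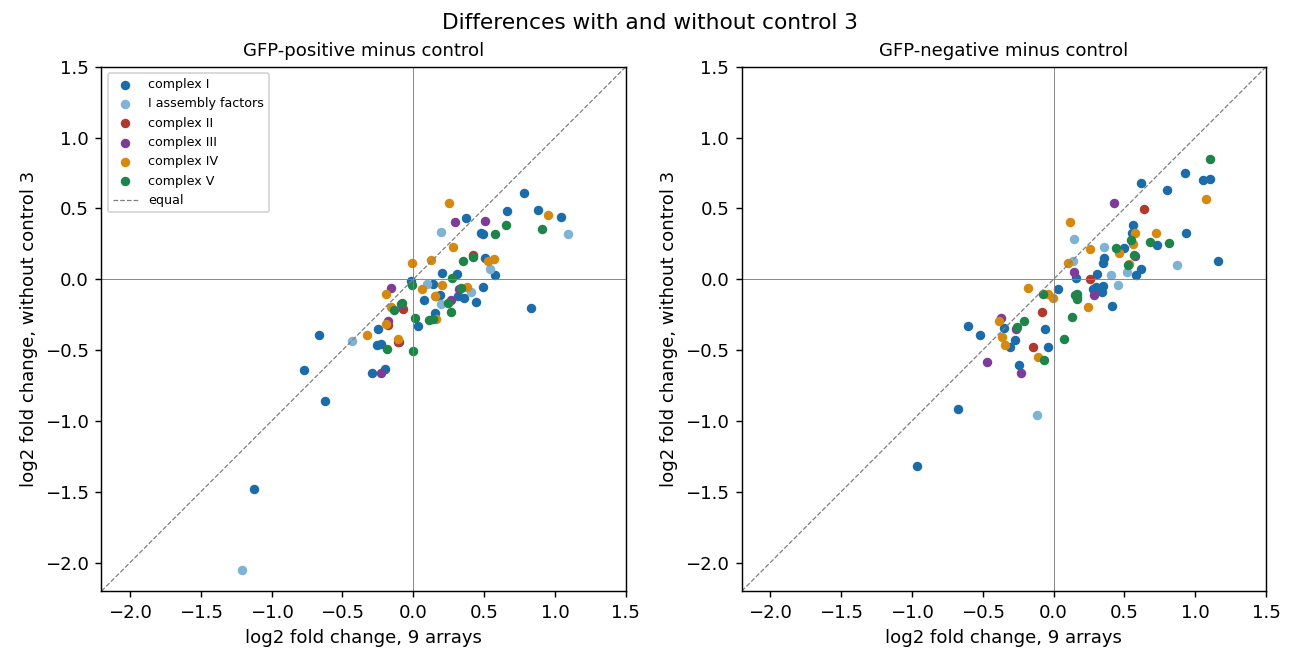
Log2 fold change with all 9 arrays (horizontal axis) against that without control 3 (vertical axis), for GFP-positive minus control (left) and GFP-negative minus control (right), a point per member coloured by complex; the dashed line marks equal values. Most points lie below the line, and the median moves to -0.11 on the left and to 0.00 on the right.

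The promoters of some members are shown because the transcription factors NRF1 and the ETS-family GABP are known to bind many promoters of these genes. RefSeq start sites on GRCm38.p6 matched 74 of the 90 members, and 1 window from 250 bases before to 50 after the start site was searched on both strands. The NRF1 motif, GCGCA and GCGC with any base between them, occurred in 16 of 74 member windows (21.6%), against 4.82% of the windows of 27025 genes. The ETS core CCGGAAG occurred in 18 (24.3%), against 9.14%, and AAGATGGCG, bound by YY1, in 6 (8.11%), against 1.48%. TCAAGGTCA, bound by ERR factors, occurred in 2 (2.70%), against 0.407%, and CCAAT in 32 (43.2%), against 38.0%. A match describes these letters in this window and nothing more. Ndufa5, Ndufb8 and Atp5g3 are printed because all 3 GFP-positive arrays exceeded all 3 controls for them, Sdha because it holds 3 NRF1 matches, and Cox6a1 because it holds NRF1 and ETS matches. Each run is the 250 bases before the start site on the gene's minus strand, with matches in capitals. The regions are chr6:24527691-24527940 for Ndufa5, chr19:44555443-44555692 for Ndufb8, chr2:73911327-73911576 for Atp5g3, chr13:74350241-74350490 for Sdha and chr5:115348959-115349208 for Cox6a1.
Ndufa5: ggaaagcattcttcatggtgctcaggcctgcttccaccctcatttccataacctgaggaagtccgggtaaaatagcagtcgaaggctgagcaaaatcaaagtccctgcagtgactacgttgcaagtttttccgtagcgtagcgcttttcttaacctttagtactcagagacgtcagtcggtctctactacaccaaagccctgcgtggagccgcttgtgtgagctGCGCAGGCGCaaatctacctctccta
Ndufb8: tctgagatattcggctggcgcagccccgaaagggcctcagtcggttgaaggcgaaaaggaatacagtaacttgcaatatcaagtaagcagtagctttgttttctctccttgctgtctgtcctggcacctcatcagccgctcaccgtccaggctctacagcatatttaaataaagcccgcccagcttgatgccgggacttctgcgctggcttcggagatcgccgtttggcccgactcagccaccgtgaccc
Atp5g3: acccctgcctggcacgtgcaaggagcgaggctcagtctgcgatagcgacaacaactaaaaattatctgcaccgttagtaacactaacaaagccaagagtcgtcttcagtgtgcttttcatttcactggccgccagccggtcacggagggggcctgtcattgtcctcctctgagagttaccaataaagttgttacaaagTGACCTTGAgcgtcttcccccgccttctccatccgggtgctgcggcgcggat
Sdha: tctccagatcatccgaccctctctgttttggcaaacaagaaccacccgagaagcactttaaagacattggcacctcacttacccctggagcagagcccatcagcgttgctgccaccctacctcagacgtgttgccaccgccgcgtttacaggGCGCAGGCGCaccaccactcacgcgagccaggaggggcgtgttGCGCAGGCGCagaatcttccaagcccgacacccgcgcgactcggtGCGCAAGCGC
Cox6a1: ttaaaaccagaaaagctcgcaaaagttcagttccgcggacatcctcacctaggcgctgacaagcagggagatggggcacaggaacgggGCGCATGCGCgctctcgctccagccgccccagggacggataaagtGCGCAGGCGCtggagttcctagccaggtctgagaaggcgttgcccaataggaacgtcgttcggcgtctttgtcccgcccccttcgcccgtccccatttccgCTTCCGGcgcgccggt
Positions are counted from the start site to the first base of a match. The capitals mark an NRF1 match at -26 in Ndufa5, and the ERR letters read on the other strand at -52 in Atp5g3. Atp5g3 also has an NRF1 match at 13, which lies after the start site and so outside the printed run. Sdha has NRF1 matches at -98, -55 and -10, and Cox6a1 has NRF1 matches at -162 and -117 and an ETS match at -16. Matches to CCAAT are not marked, and Ndufb8 holds no match to any of the motifs. The Atp5g3 window belongs to a start site inside the gene's annotated span, and the other 4 lie at its outer boundary.

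The catalytic core of complex I carries the flavin and iron-sulfur clusters that take electrons from NADH to ubiquinone. The 6 core genes tested had a median of 0.27 in GFP-positive minus control, 0.57 in GFP-negative minus control and -0.19 in GFP-positive minus GFP-negative. Ndufs7, whose cluster hands electrons to ubiquinone, measured 9.38, 9.69 and 10.40 in GFP-positive, 10.04, 10.02 and 10.13 in GFP-negative, and 9.30, 9.47 and 9.57 in control arrays. All 3 GFP-negative values exceeded all controls, while the GFP-positive values overlapped them. The difference was 0.37 ± 0.30 in GFP-positive minus control and 0.61 ± 0.30 in GFP-negative minus control. Ndufs1, an iron-sulfur subunit of the NADH-oxidising arm, measured 7.47, 8.30 and 7.59 in GFP-positive, 7.80, 7.59 and 8.40 in GFP-negative, and 6.59, 7.77 and 6.66 in control arrays. Control 2 lay within the dnMPL values and the other controls below them. Ndufv1, which binds NADH, measured 9.86, 9.92 and 9.87 in GFP-positive, 10.02, 10.14 and 9.65 in GFP-negative, and 11.03, 10.05 and 9.44 in control arrays, and control 1 was the highest. In GFP-negative minus control, 5 of 6 core genes were higher with and without control 3 (median 0.27 without it). In GFP-positive minus control, 5 of 6 were higher with control 3 and 2 of 6 without it, where the median turned to -0.09. With the brightest probe set of each gene, all 6 were lower in GFP-positive than in GFP-negative cells, by 0.05 to 0.47 in estimate. Other probe sets above the filter gave -0.25 and 0.27 for Ndufv1, and -0.30 and 0.28 for Ndufv2. They gave -0.29 to 0.22 for Ndufs8 and -0.26 for Ndufs7. No core gene passed the threshold in these comparisons. Ndufs1, Ndufs3, Ndufs7, Ndufs8, Ndufv1 and Ndufv2 were singled out after their values were seen.

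Complex I accessory subunits surround this core and stabilise it. The 27 tested had medians of 0.19, 0.31 and -0.16 in GFP-positive minus control, GFP-negative minus control and GFP-positive minus GFP-negative. Without control 3 the medians against control were -0.13 (9 of 27 higher) and -0.06 (12 of 27), and without control 3 and GFP-positive 2 the median between the dnMPL fractions was 0.03. Ndufa5, an accessory subunit, measured 11.53, 11.82 and 11.79 in GFP-positive, 11.88, 11.47 and 11.48 in GFP-negative, and 11.24, 11.22 and 10.69 in control arrays, so neither dnMPL fraction overlapped control. The difference was 0.66 ± 0.27 (95% interval 0.05 to 1.28, adjusted p 0.732 by limma) in GFP-positive minus control and 0.56 ± 0.27 in GFP-negative minus control. Without control 3, the lowest array for Ndufa5, these differences were 0.48 and 0.38. Ndufb8, of the membrane arm, measured 9.00, 9.36 and 9.74 in GFP-positive, 9.74, 9.72 and 9.30 in GFP-negative, and 8.77, 8.98 and 7.70 in control arrays. Its difference was 0.88 ± 0.38 in GFP-positive minus control and 1.10 ± 0.38 in GFP-negative minus control, and 0.49 and 0.71 without control 3. Ndufa3, a small membrane-arm subunit, measured 9.31, 9.57 and 10.13 in GFP-positive, 10.17, 10.19 and 9.64 in GFP-negative, and 10.30, 9.45 and 6.78 in control arrays. Its 0.83 ± 0.75 in GFP-positive minus control turned to -0.20 without control 3, since that array lay 3.10 below the mean of the other controls.

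Other accessory genes lay lower in the dnMPL fractions. Ndufa7, of the peripheral arm, measured 6.45, 6.52 and 7.94 in GFP-positive, 7.26, 7.37 and 6.75 in GFP-negative, and 7.79, 9.10 and 7.38 in control arrays. Its difference was -1.12 ± 0.53 in GFP-positive minus control and -0.96 ± 0.53 in GFP-negative minus control. Other probe sets of the gene gave -0.95 to 0.27 and -0.60 to 0.40. The positive values came from a single probe set, which measured 3.49 on control 3, against 7.62 and 7.57 on controls 1 and 2. Ndufb10 measured 8.22, 8.05 and 9.14 in GFP-positive, 8.39, 9.05 and 8.16 in GFP-negative, and 8.99, 8.74 and 9.67 in control arrays, with a difference of -0.66 ± 0.40 in GFP-positive minus control that was -0.40 without control 3. Ndufb7, also of the membrane arm, was -0.77 ± 0.45 in GFP-positive minus control, but -0.09 without control 3 and GFP-positive 2, and its other probe set gave 0.17. GFP-positive 2 was its lowest array at 10.81, and both genes had control 3 as their highest array. The pair with the extreme values between the dnMPL fractions were Ndufa9 at 0.47 ± 0.37 and Ndufv3 at -0.61 ± 0.44.

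**Figure D4:**
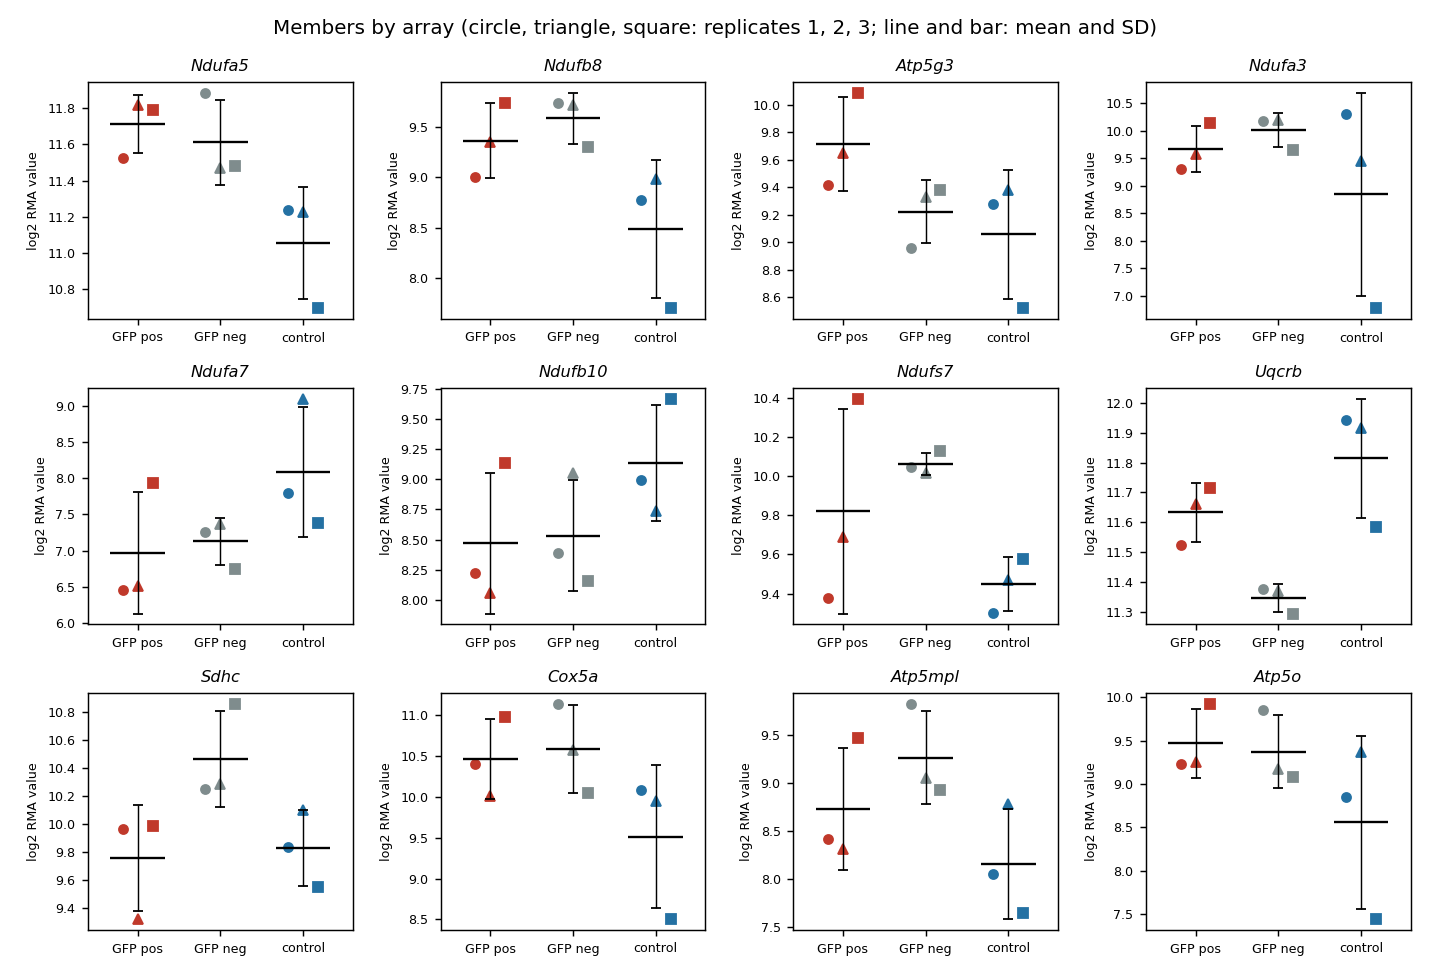
Log2 RMA value (vertical axis) of 12 members on each array of GFP-positive, GFP-negative and control cells; symbols are replicates 1 to 3, the line is the mean and the bar the SD of 3 arrays. Ndufa5, Ndufb8 and Atp5g3 have all GFP-positive points above all controls. Control 3 is the lowest point of 9 for those genes and for Ndufa3, Cox5a, Atp5mpl and Atp5o.

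The 8 assembly factors build complex I and are not part of the finished enzyme. Their median was 0.19 in GFP-positive minus control and 0.38 in GFP-negative minus control, and -0.06 and 0.08 without control 3. Ndufaf8 measured 9.09, 10.35 and 9.70 in GFP-positive, 9.23, 9.88 and 9.37 in GFP-negative, and 9.47, 9.32 and 7.09 in control arrays. It had the highest estimate of any member in GFP-positive minus control, 1.09 ± 0.61, and 0.32 without control 3, while its other probe set above the filter gave -0.37. Ndufaf1, which acts on the membrane-arm intermediate, measured 4.71, 2.34 and 5.08 in GFP-positive, 4.65, 5.12 and 5.65 in GFP-negative, and 6.54, 5.65 and 3.57 in control arrays. Its -1.21 ± 0.85 in GFP-positive minus control became -2.05 without control 3, and its groups overlapped. Without control 3 and GFP-positive 2 the difference was -1.20. The gene's values on those arrays, 3.57 and 2.34, lay below the filter on low values, so its estimates depend on low readings of the doubted arrays.

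Complex II, succinate dehydrogenase, is also a TCA cycle enzyme and pumps no protons. Its 4 genes had medians of -0.09, 0.09 and -0.03 in GFP-positive minus control, GFP-negative minus control and GFP-positive minus GFP-negative. The flavoprotein gene Sdha measured 10.57, 10.26 and 10.61 in GFP-positive, 10.14, 10.59 and 10.61 in GFP-negative, and 11.29, 10.56 and 9.92 in control arrays, so the controls bracketed both fractions. The membrane anchor gene Sdhc measured 9.97, 9.32 and 9.98 in GFP-positive, 10.25, 10.28 and 10.86 in GFP-negative, and 9.84, 10.10 and 9.55 in control arrays. It was the only member with an unadjusted p under 0.05 in GFP-positive minus GFP-negative. The difference was -0.71 ± 0.31 (95% interval -1.41 to -0.01, adjusted p 0.9998 by limma). The gene's other probe set above the filter gave -0.05 in that comparison, and GFP-positive 2 was the lowest array of the printed values. Without control 3 the medians against control were -0.27 and -0.11. Sdhb, the iron-sulfur subunit, was 0.42 ± 0.32 (0.17 without control 3) and Sdhd, the other anchor, -0.18 ± 0.28 in GFP-positive minus control.

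Complex III takes electrons from ubiquinol to cytochrome c. Its 8 genes had medians of 0.09 in GFP-positive minus control, -0.04 in GFP-negative minus control and 0.11 in GFP-positive minus GFP-negative, and 6 of 8 were higher in GFP-positive than in GFP-negative cells. Without control 3 the medians against control were -0.10 and -0.19. The accessory gene Uqcrb measured 11.53, 11.66 and 11.72 in GFP-positive, 11.38, 11.37 and 11.30 in GFP-negative, and 11.94, 11.91 and 11.59 in control arrays. Both other groups lay above all GFP-negative values, and the difference was -0.47 ± 0.24 in GFP-negative minus control. Uqcrq was 0.51 ± 0.35 in GFP-positive minus control, where another of its probe sets gave -0.60. The Rieske iron-sulfur gene Uqcrfs1 was 0.33 ± 0.36 (-0.07 without control 3) and the core genes Uqcrc1 and Uqcrc2 were -0.09 ± 0.27 and 0.29 ± 0.29 in the same comparison.

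Complex IV, cytochrome c oxidase, has isoform genes that are used in particular tissues. The 11 tested genes outside those isoforms had medians of 0.20 in GFP-positive minus control and 0.46 in GFP-negative minus control, and the 6 tissue isoform genes -0.08 and -0.11. Without control 3 these were -0.06 (4 of 11 higher) and 0.19 outside the isoforms, and 0.01 and -0.08 for the isoforms. Cox5a, a subunit next to the catalytic core, measured 10.40, 10.01 and 10.98 in GFP-positive, 11.13, 10.57 and 10.05 in GFP-negative, and 10.08, 9.95 and 8.50 in control arrays. Its difference was 0.95 ± 0.48 in GFP-positive minus control and 1.07 ± 0.48 in GFP-negative minus control, and 0.45 and 0.57 without control 3. The widely expressed isoform gene Cox6a1 measured 10.96, 9.33 and 11.45 in GFP-positive, 11.38, 11.26 and 11.10 in GFP-negative, and 10.91, 11.09 and 10.06 in control arrays, and GFP-positive 2 was its lowest array. The muscle isoform genes Cox6a2 and Cox8b, the lung isoform Cox4i2 and the testis isoform Cox6b2 were 0.25 ± 0.35, -0.16 ± 0.27, 0.13 ± 0.25 and -0.33 ± 0.35 in GFP-positive minus control, and Cox6a2 was 0.54 without control 3. Control 3 was above both other controls for 3 of the 6 tissue isoforms and below both for 1. The isoforms' levels lay below those of most other complex IV genes, and among the isoforms Cox8b and Cox4i2 lay nearest the filter of 4.03. Means over 9 arrays were 4.16 for Cox8b, 4.72 for Cox4i2, 5.31 for Cox8c and 5.41 for Ndufa4l2. They were 6.36 for Cox6a2 and 7.26 for Cox6b2. Outside the isoforms Cox7c had 4.76, and the rest ran from 8.54 (Cox8a) to 11.78 (Cox5b). The part of low level in the isoforms' medians and in their control 3 values was not tested. In GFP-positive minus control Cox7a2l, a supercomplex factor, was -0.19 ± 0.29. Ndufa4, first assigned to complex I and now placed in complex IV, was 0.28 ± 0.28.

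Complex V couples a rotating ring in the membrane to the catalytic head. Its 17 genes had medians of 0.25 in GFP-positive minus control, 0.16 in GFP-negative minus control and -0.02 in GFP-positive minus GFP-negative. Control 3 was below both other controls for all 17 of these genes and was the lowest of 9 arrays for 13. Without it the medians were -0.17 and -0.11. Atp5g3, one of 3 genes that encode the same ring subunit, measured 9.42, 9.65 and 10.09 in GFP-positive, 8.96, 9.33 and 9.38 in GFP-negative, and 9.28, 9.38 and 8.52 in control arrays. GFP-positive cells did not overlap either group, and the difference was 0.66 ± 0.32 against control, or 0.39 without control 3, and 0.49 ± 0.32 against GFP-negative cells. The other ring genes Atp5g1 and Atp5g2 were 0.35 ± 0.37 and 0.27 ± 0.48 in GFP-positive minus control, and 0.13 and -0.23 without control 3. Atp5mpl, a small membrane subunit, measured 8.42, 8.32 and 9.46 in GFP-positive, 9.82, 9.04 and 8.92 in GFP-negative, and 8.05, 8.78 and 7.65 in control arrays. It was 1.10 ± 0.43 in GFP-negative minus control (95% interval 0.13 to 2.07; adjusted p 0.862 by limma) and 0.85 without control 3. The 5 membrane subunits were all above control in both fractions in estimate and all lower in GFP-positive than in GFP-negative cells. Those counts rest on single arrays: without control 3, 2 of 5 were above control in GFP-positive and 3 of 5 in GFP-negative cells, and without control 3 and GFP-positive 2, 2 of 5 were higher in GFP-positive than in GFP-negative cells. Atp5o, of the peripheral stalk, was 0.91 ± 0.49 in GFP-positive minus control and 0.35 without control 3. The catalytic head genes Atp5a1 and Atp5b were -0.14 ± 0.27 and 0.34 ± 0.37 in GFP-positive minus control, and -0.21 and -0.06 without control 3.

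Arrays that did not overlap between groups were counted too. In GFP-positive minus control 3 members lay wholly above control and 0 below, where 4.35% and 4.26% of all genes did. In GFP-negative minus control 9 lay above and 4 below (4.94% and 6.47% of all genes). The 9 were Ndufa5, Ndufb11, Ndufb8, Ndufs3, Ndufs7, Ndufv2, Sdhc, Cox6a1 and Atp5mpl, and the 4 were Ndufa7, Uqcrb, Uqcrc1 and Cox8b. Some separations were narrow. The lowest GFP-negative value and highest control were 11.096 and 11.093 for Cox6a1, 8.279 and 8.274 for Ndufs3, and 11.382 and 11.372 for Ndufb11. The highest GFP-negative value and lowest control were 8.022 and 8.034 for Uqcrc1, and 7.365 and 7.379 for Ndufa7. Cox8b lay near the filter of 4.03, with 3.63 on GFP-negative 1. In GFP-positive minus GFP-negative 2 lay above, Uqcrb and Atp5g3, and Sdhc lay below (3.96% and 2.44%). These genes, where no other rule took them, and Ndufb10, Uqcrfs1, Uqcrc2 and Atp5b were named after their values were seen.

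Other genes of the pathway, in lists chosen with earlier results known, gave the same picture of 0 called genes. Of 33 assembly and expression factors tested 23 were higher and 10 lower in GFP-positive minus control (median 0.15), and of 16 TCA cycle genes 9 and 7 (0.17). Electron carriers and coenzyme Q genes had a median of -0.20 (7 of 16 higher), exchange genes of the membranes 0.22 (5 of 7) and regulators of mitochondrial biogenesis 0.10 (9 of 14). Without control 3 the medians were -0.04 for the assembly and expression factors, 0.08 for the TCA cycle, -0.24 for the electron carriers, 0.09 for exchange and -0.05 for the regulators. Polrmt, the mitochondrial RNA polymerase, measured 7.82, 7.42 and 6.85 in GFP-positive, 7.10, 6.11 and 5.50 in GFP-negative, and 4.85, 5.79 and 4.43 in control arrays. All GFP-positive values lay above all controls, with a difference of 2.34 ± 0.49 (adjusted p 0.364 by limma), and GFP-negative minus control was 1.22 ± 0.49. Atpaf1, an assembly factor of complex V, measured 6.96, 6.52 and 6.84 in GFP-positive, 6.21, 6.43 and 7.83 in GFP-negative, and 5.22, 5.55 and 5.24 in control arrays, so both fractions lay above control. Its differences were 1.44 ± 0.41 and 1.49 ± 0.41 (adjusted p 0.596 and 0.647). Uqcc1, an assembly factor of complex III, was -1.82 ± 0.52 in GFP-positive minus control (adjusted p 0.586), and control 3 was its highest array at 8.05. Idh3b, a subunit of isocitrate dehydrogenase, was 1.27 ± 0.35 in GFP-negative minus control (adjusted p 0.647). Etfdh, which passes electrons to ubiquinone, was -1.07 ± 0.41 in GFP-negative minus control, and Mpc1, a subunit of the pyruvate carrier, was -1.29 ± 0.57 in GFP-positive minus control, with its highest value, 8.60, on control 3, and -0.71 without that array.

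**Figure D5:**
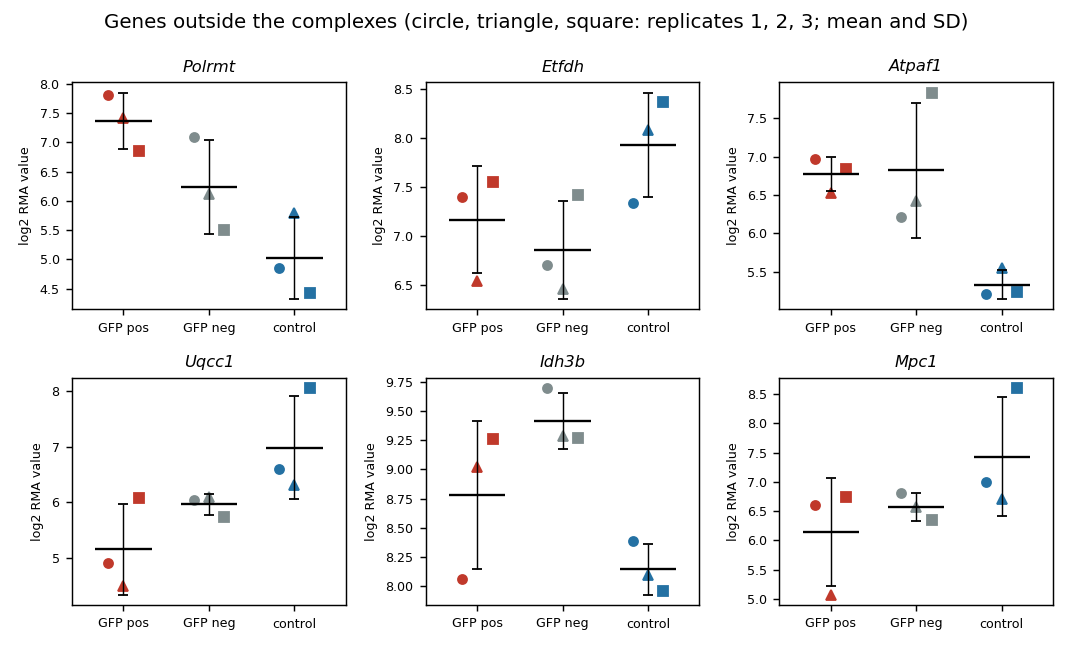
Log2 RMA value (vertical axis) of 6 genes outside the complexes on each array of GFP-positive, GFP-negative and control cells; symbols are replicates 1 to 3, the line is the mean and the bar the SD of 3 arrays. For Polrmt and Atpaf1 all GFP-positive points lie above all controls.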

How the data were processed

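RNA of 9 sorted LSK samples, 3 per group, was hybridised to Affymetrix mouse arrays. The authors deposited log2 values made with RMA, as named without a version in the submitters' processing notes. RMA subtracts background, equalises the arrays' distributions and combines the probes of a set. Its summary gave 20 members equal values on 2 or more arrays. Precision is set by 3 arrays a group.

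Of 45101 probe sets, 34945 name 1 gene in the platform annotation, 932 several and 9160 none; 64 are controls. Each gene took its brightest single-gene probe set over 9 arrays. Genes with a mean above the 40th percentile of probe sets (4.03) were tested: 12400 of 18193. limma 3.58.1 under R 4.3.3 fitted the 3 groups jointly (lmFit, then eBayes), with Benjamini-Hochberg adjustment at 0.05. With 3 arrays a side, exact permutation gives no p under 0.1. The test was tested on simulated data. Promoters came from a RefSeq table on GRCm38.p6, with the window nearest each gene's boundary.

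Members, gene lists and markers were chosen with earlier results of these data known. Genes were named by rule: in each complex the highest and lowest difference per comparison and the brightest member, the Sdh, isoform and ring genes, genes whose probe sets differed by over 1, and the smallest p of each list per comparison. The text marks genes named outside this rule. Alternatives changed the filter, probe set, variance prior, array weights, normalization, samples and replicate block; preferring probe sets without _s_at or _x_at endings was chosen after seeing the data.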

Additional observations from a re-analysis of the deposited data

How the results depend on the processing

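No alternative called a gene in any comparison with limma. The pooled SD of the members' median between arrays of a group was 0.370, with control 3 included. Over leaving out 1 array at a time the members' median difference ran from -0.109 to 0.311 in GFP-positive minus control. It ran from 0.005 to 0.404 in GFP-negative minus control and from -0.156 to 0.031 in GFP-positive minus GFP-negative. The lowest values against control came without control 3. With array weights the medians were 0.004, 0.102 and -0.101, and without control 3 and GFP-positive 2 together -0.0008, 0.005 and 0.031. With the replicate block the medians were 0.161, 0.258 and -0.045, and 0 genes were called. The replicate numbers are balanced over the groups, so the block leaves every difference unchanged by construction. To compare same-numbered samples, each gene's mean within its group was first subtracted from the arrays of that group. The remainders of same-numbered samples correlated at 0.101, -0.042 and -0.065 between the dnMPL fractions and at -0.290 to 0.072 against control. With 3 arrays a group, such correlations cannot tell whether same-numbered samples shared mice.

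Some named members changed sign. In GFP-positive minus control averaging all probe sets per gene gave Ndufs4 -0.249 and Uqcrq -0.0725, and probe sets without _s_at or _x_at endings gave Uqcrq -0.598. Ndufa3 ran from -0.205 to 1.56 over leaving out 1 array and was -0.157 without both doubted arrays. In GFP-negative minus control probe sets without those endings gave Cox5b -0.184 and Sdhc -0.315. In GFP-positive minus GFP-negative the mean of probe sets gave Uqcrb -0.300. Of 45 members with several probe sets above the filter, 22 had opposite signs among them in GFP-positive minus control. Causes were not tested.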

Other observations

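ND5, a complex I subunit encoded by mitochondrial DNA, is no member but has a probe set on the array. It measured 13.58, 13.58 and 13.44 in GFP-positive, 13.42, 13.37 and 13.37 in GFP-negative, and 13.55, 13.60 and 13.65 in control arrays. Control 3 was its highest array, whereas the nuclear members were mostly lowest there. A probe set shared by Ndufs5 and Ndufs5-ps measured 9.11, 8.91 and 9.28 in GFP-positive, 8.42, 8.60 and 9.35 in GFP-negative, and 9.47, 9.14 and 7.22 in control arrays, so it was lowest on control 3. A probe set shared by Ndufs6 and Ndufs6b was 9.61, 9.70 and 9.88 in GFP-positive, 9.43, 9.53 and 9.82 in GFP-negative, and 9.70, 9.70 and 8.66 in control arrays.

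Esrra, a nuclear receptor that regulates mitochondrial genes, was chosen after its values were seen. It measured 7.45, 6.13 and 6.96 in GFP-positive, 6.07, 6.54 and 4.77 in GFP-negative, and 4.88, 5.73 and 5.58 in control arrays. Its difference was 1.45 ± 0.51 in GFP-positive minus control (adjusted p 0.699 by limma).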
